A study of Mus musculus with 20 samples.

Results

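The haem, glutathione and NRF2 antioxidant genes were followed as 10 listed genes, found by gene symbol in the probe table of the array: Hmox1, Nqo1, Gclc, Gclm, Txnrd1, Srxn1, Gpx1, Gpx2, Gpx3 and Nfe2l2. A gene was taken from the probe set that names it alone, and 9 of the 10 had 1 such probe set. The probe set of Gclm also carries the symbol Gm6061, so Gclm was not analysed here. Of the 9 genes, 8 passed the signal filter (a signal over the median of its array on 4 arrays or more) and were tested among 17993 genes, of 30063 with a name. Nqo1 lay above the median on 3 of 20 arrays and is given by its values. Log2 signals of the 9 genes were read in whole pancreas of C57BL/6J mice of undetermined sex. The groups were inceptor knockouts (Iir -/-) at the day of birth (P0, 6 arrays), wild-type mice (Iir +/+) at P0 (5 arrays), knockouts at embryonic day 18.5 (E18.5, 5 arrays) and wild type at E18.5 (4 arrays). P0 pups had been starved for 5 h, and at E18.5 the mother had been starved for 2 h, so age and starvation cannot be told apart. Inceptor is a receptor that dampens insulin receptor signalling, and the knockout was not restricted to a cell type in the labels.

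NRF2, the product of Nfe2l2, is a transcription factor that KEAP1 and the ubiquitin ligase scaffold CUL3 mark for degradation until oxidants or electrophiles release it. It then pairs with small MAF proteins on antioxidant response elements and raises enzymes that make glutathione, reduce thioredoxin and quinones, and degrade haem. Haem oxygenase 1 (Hmox1) opens the haem ring to biliverdin, iron and carbon monoxide, is strongly expressed by macrophages that clear red cells, and also answers to the repressor BACH1 and to other stress pathways. Pancreatic beta cells are known for low levels of several peroxide-removing enzymes.

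The element that NRF2 binds was looked up in promoters from RefSeq (assembly GRCm38.p6), each spanning 250 bases before to 50 after a gene's start, to show which of the genes carry it near the start. Of the 10 genes, 8 had entries, with 10 promoters, and Hmox1 and Gclc had none. The antioxidant response element core TGACNNNGC, searched on both strands, occurred in 12.4% of 32851 promoters. It occurred once each in the promoters of Nfe2l2, Srxn1 and Gclm and in 1 of 3 promoters of Txnrd1. The AP-1 element TGAGTCA, with which such elements can overlap, occurred in 5.20% of promoters and at 2 places in that of Srxn1. In the stretches below the match is in capitals, on the strand of the gene, with 10 bases on either side. A match describes the letters only.
Txnrd1, chr10:82859104-82859132, plus strand, match on the opposite strand: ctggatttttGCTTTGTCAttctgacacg
Srxn1, chr2:152105542-152105570, plus strand, match on the opposite strand: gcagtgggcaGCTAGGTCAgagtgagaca
Srxn1 AP-1, chr2:152105469-152105495, plus strand: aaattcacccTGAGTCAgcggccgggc
Nfe2l2, chr2:75704885-75704913, minus strand: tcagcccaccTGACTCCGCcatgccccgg

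The arrays as a whole gave the following background. The median log2 signal of an array was 4.81 to 4.94. How many arrays a group holds limits the precision of its values. Inceptor itself (Elapor1) was lower in knockouts at both ages, by -5.49 ± 0.18 (SE) at P0 and -5.55 ± 0.19 at E18.5 (limma adjusted p = 8.1e-13 and 4.13e-12). Acinar markers identified the tissue, with a mean log2 signal of 14.67 to 16.02 over 9 of 10 listed genes. Cell-type markers also moved with age. Of 9 tested acinar markers, 3 transcription factors were called lower at P0 in each genotype. Ptf1a (-2.999 ± 0.528), Rbpjl (-2.61 ± 0.29) and Bhlha15 (-1.90 ± 0.30) fell in knockouts. In wild type they fell by 3.03 ± 0.59, 1.26 ± 0.32 and 1.79 ± 0.33 (limma adjusted p at most 0.0203). Nr5a2 stood at -0.36 ± 0.14 in knockouts and 0.35 ± 0.15 in wild type, and Cela1 at -0.09 ± 0.15 and 0.05 ± 0.17, all not called. Cel, Cpa1, Ctrb1 and Prss1 sat at the signal ceiling at both ages, so they could not show a rise. Of 6 mesenchyme markers, Dcn, Vim and Col3a1 rose in knockouts by 0.73, 0.68 and 0.67 (adjusted p at most 0.0108), and 0 were called in wild type. All 6 stood above 0 in both genotypes (medians 0.49 and 0.23), and 0 were called for a difference of this change between genotypes. Of all tested genes 11.3% were called higher and 11.7% lower in knockouts, and 4.76% higher and 4.10% lower in wild type. The part of these shifts in the changes with age below was not tested. Neighbouring tissue varied between arrays: the mean of the 9 liver markers ran from 8.14 to 14.95, and that of the 6 intestinal markers from 5.95 to 9.66. Of the 20 arrays, 5 had an intestinal or skeletal muscle marker mean over 8, namely 3 E18.5 knockouts, 1 E18.5 wild type and 1 P0 knockout. In whole tissue, more cells of a type and more RNA per cell cannot be told apart.

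The clearest pattern among the 9 genes was a rise of Hmox1 around birth in both genotypes. In knockouts its log2 signal at P0 had a lowest value of 10.06, a median of 10.51 and a highest of 11.80, against 8.15, 7.68, 7.36, 7.24 and 7.99 at E18.5. Every P0 array lay above every E18.5 array. In wild type the values were 10.63, 9.59, 11.52, 9.60 and 9.97 at P0, against 7.28, 7.55, 7.54 and 7.51 at E18.5, again without overlap. The 4 E18.5 wild-type arrays lay close together, while the P0 arrays of both genotypes spread widely.

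The rise of Hmox1 was 7.98-fold in knockouts (log2 difference 2.997 ± 0.340 SE, limma adjusted p = 2.58e-05, higher in 6 of 6 arrays). In wild type it was 6.91-fold (2.79 ± 0.38 SE, limma adjusted p = 0.000475, higher in 5 of 5 arrays). In the same comparisons limma called 23.0% of all tested genes in knockouts (11.3% higher, 11.7% lower) and 8.86% in wild type (4.76% higher, 4.10% lower). The share of tested genes with every P0 array above every E18.5 array was 5.90% in knockouts and 6.24% in wild type, and with every P0 array below it was 6.55% and 5.36%. The call of Hmox1 held in each of the 35 other settings tried per genotype, with differences of 2.77 to 3.30 in knockouts and 2.47 to 3.05 in wild type.

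**Figure D1:**
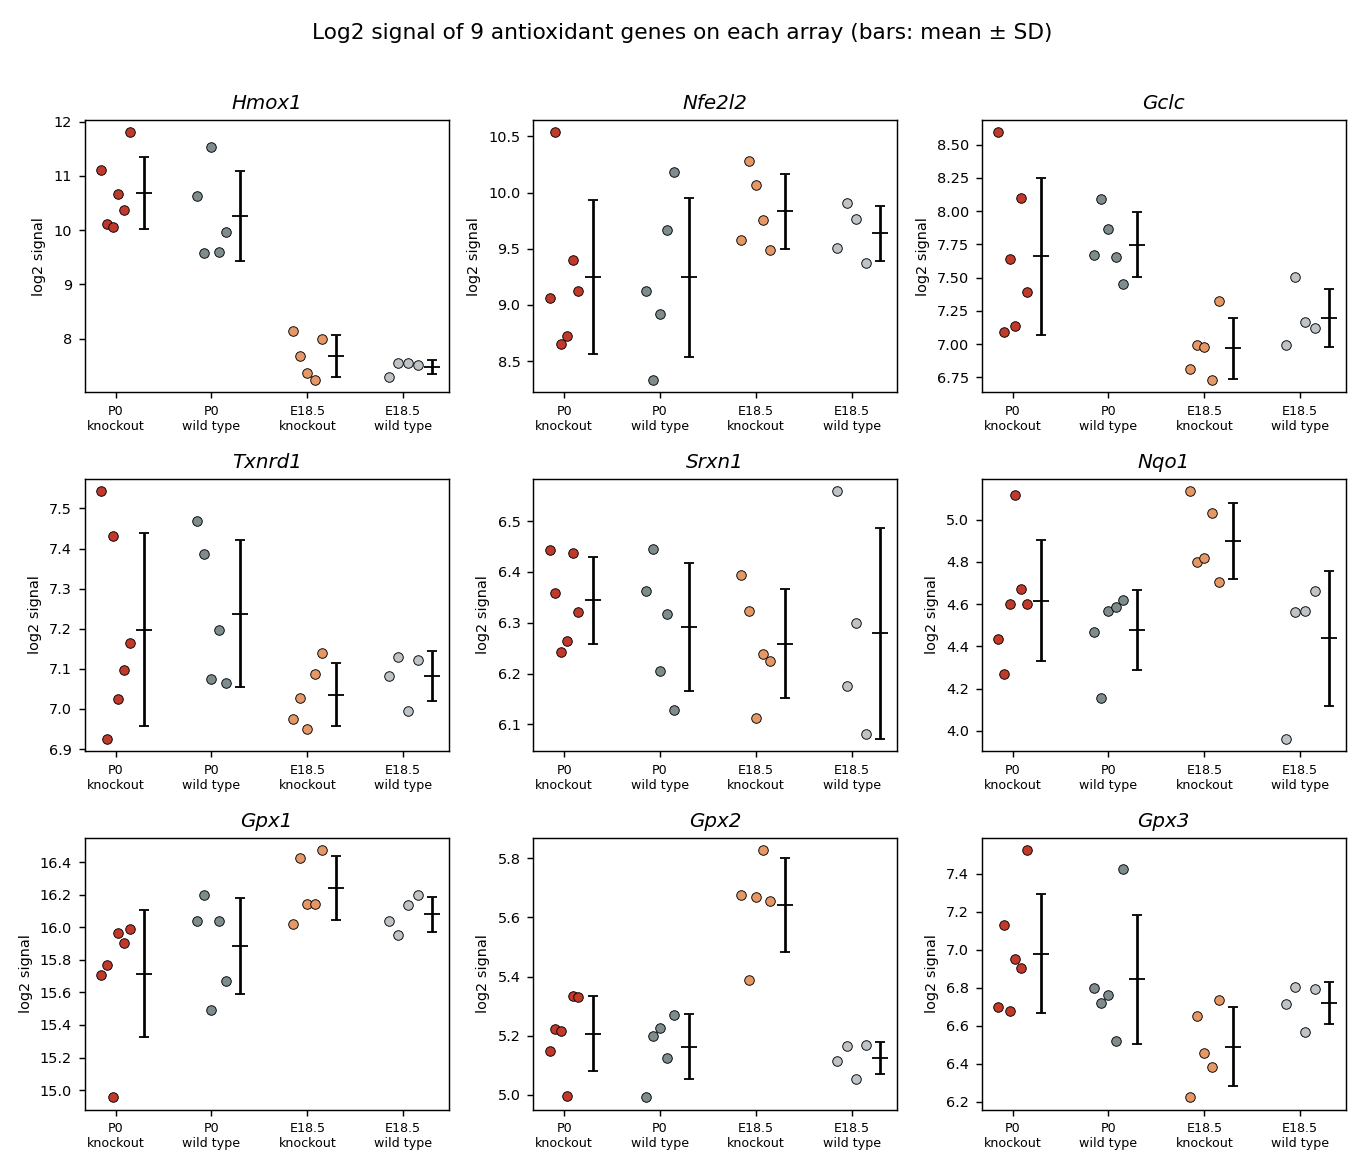
Log2 signal (y axis, a separate range for each gene) of the 9 genes on each array, in P0 knockouts, P0 wild type, E18.5 knockouts and E18.5 wild type (x axis), with bars for the mean and SD of each group. Hmox1 sits between 9.59 and 11.80 on all P0 arrays and between 7.24 and 8.15 on all E18.5 arrays, and Gpx2 stands higher in E18.5 knockouts than in the other groups.

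Markers of macrophages, which degrade haem, also moved with age. Their mean over 10 of 11 listed genes was 7.06 to 7.54 in P0 knockouts, against 6.53 to 7.30 in E18.5 knockouts, and 7.20 to 7.68 in P0 wild type, against 6.98 to 7.12 in E18.5 wild type. In knockouts 4 of 10 were called higher (Cd163, Cd68, Csf1r and Mrc1) with a median difference of 0.47, where 11.3% of all tested genes were called higher. In wild type Cd68 was called higher and C1qa lower, with a median of 0.22. With the macrophage mean as a covariate, chosen after seeing the data, Hmox1 differed by 2.998 in knockouts (limma adjusted p = 0.00275) and 2.79 in wild type (adjusted p = 0.00511). Within groups Hmox1 and the macrophage mean were not correlated, so this fit could hardly change the difference. The part of macrophages in the rise of Hmox1 was not tested.

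None of the 4 tested erythroid markers was called between the ages in either genotype, with median differences of -0.04 in knockouts and -0.06 in wild type. Alas2 stood at -0.50 ± 0.29 in knockouts and 0.45 ± 0.32 in wild type, and this change was not shown to differ between genotypes (limma adjusted p = 0.705). Klf1, Slc4a1 and Hemgn stood between -0.12 and 0.05. Their means in P0 knockouts (4.95, 5.56 and 5.90) were near the array medians, where changes are understated. The mean of the 4 erythroid markers was 5.86 to 6.66 in P0 knockouts, against 6.12 to 6.76 in E18.5 knockouts. The globin genes of the list had no probe set of their own. Liver markers had a median difference of 0.67 in knockouts and -1.80 in wild type, with 0 of 9 called in each and 8 of 9 above 0 in knockouts. With the liver mean as a covariate Hmox1 differed by 2.90 in knockouts and 2.97 in wild type.

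Nfe2l2 itself did not pass the test around birth. Its log2 signal in knockouts was 8.65 (lowest), 9.10 (median) and 10.54 (highest) at P0, against 9.58, 10.28, 10.06, 9.76 and 9.49 at E18.5. In wild type it was 9.12, 8.33, 8.92, 9.67 and 10.18 at P0, against 9.50, 9.91, 9.77 and 9.37 at E18.5. The ages overlapped in both genotypes: P0 knockout 2 and P0 wild type 5 lay above all E18.5 arrays of their genotype, and P0 wild type 4 lay among them. The differences were -0.58 ± 0.32 in knockouts (limma adjusted p = 0.211) and -0.39 ± 0.36 in wild type (adjusted p = 0.542), with 95% intervals of -1.26 to 0.09 and -1.14 to 0.36. Without P0 knockout 2 the difference in knockouts was -0.84 with an adjusted p of 0.0307.

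Of the glutathione and thiol enzymes that NRF2 is known to raise, Gclc passed the test in knockouts. Gclc encodes the catalytic subunit of glutamate-cysteine ligase, the rate-limiting enzyme of glutathione synthesis. Its signal in knockouts was 7.09 (lowest), 7.52 (median) and 8.59 (highest) at P0, against 6.81, 6.99, 6.98, 6.73 and 7.33 at E18.5. The P0 arrays lay above the E18.5 mean in 6 of 6 cases, although the groups overlapped. The rise was 0.69 ± 0.22 (limma adjusted p = 0.0302). It missed the threshold in 11 of 35 other settings. These were leaving out any of E18.5 knockouts 1, 2, 3 and 4 or P0 knockouts 1 and 5 (adjusted p from 0.0522 to 0.0745), the 5 marker-rich arrays together (0.326), adding the intestinal (0.182) or macrophage (0.0649) marker mean or the running sample number (0.395) as a covariate, and fitting the 2 groups alone (0.0846).

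In wild type Gclc was 7.67, 8.09, 7.87, 7.65 and 7.45 at P0, against 6.99, 7.50, 7.17 and 7.12 at E18.5. All 5 P0 arrays were above the E18.5 mean, and 1 of them fell below the highest E18.5 array. The difference of 0.55 ± 0.24 did not pass (limma adjusted p = 0.173), and the change with age was not shown to differ between genotypes (difference 0.14 ± 0.33, limma adjusted p = 0.959).

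Txnrd1 and Srxn1 did not pass in any comparison. Txnrd1, the cytosolic thioredoxin reductase, ranged from 6.93 to 7.54 in P0 knockouts, against 6.95 to 7.14 in E18.5 knockouts. In wild type it ranged from 7.06 to 7.47 at P0, against 6.996 to 7.130 at E18.5. Its differences were 0.16 ± 0.10 in knockouts (95% interval -0.05 to 0.38) and 0.16 ± 0.11 in wild type (-0.08 to 0.39). The P0 arrays were more spread than the E18.5 arrays, and the ages overlapped. Srxn1, which repairs over-oxidised peroxiredoxins, ranged from 6.08 to 6.56 over all arrays. Its differences were 0.09 ± 0.08 in knockouts (95% interval -0.08 to 0.26) and 0.01 ± 0.09 in wild type (-0.17 to 0.20). These intervals leave out a change of the size seen for Hmox1.

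Nqo1, a quinone reductase that is a common readout of NRF2 activity, stayed near the array medians. It was 4.27 (lowest), 4.602 (median) and 5.12 (highest) in P0 knockouts and 4.15 to 4.62 in P0 wild type. In E18.5 knockouts it was 5.14, 4.80, 4.82, 5.03 and 4.71, and in E18.5 wild type 3.96, 4.56, 4.57 and 4.66. At this level a difference between groups has an uncertain size. All E18.5 knockouts were above all E18.5 wild types, by 0.46 on average, as was so in this direction for 1.74% of all tested genes. The lowest knockout (4.71) and the highest wild type (4.66) lay close together, and 1 wild type at 3.96 lay far below the others. The limma adjusted p was 0.881 when all 30063 named genes were tested.

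The glutathione peroxidases, selenoproteins that reduce peroxides with glutathione, differed in direction. Gpx1, the cytosolic form of all cells, was 14.96 (lowest), 15.84 (median) and 15.99 (highest) in P0 knockouts, against 16.02, 16.42, 16.14, 16.14 and 16.47 in E18.5 knockouts. Every P0 knockout was below every E18.5 knockout, as was so for 6.55% of all tested genes. It fell by 0.53 ± 0.17 on the log2 scale (limma adjusted p = 0.0282). The call ended without E18.5 knockout 2 (adjusted p = 0.0727) or 5 (0.0671) and without the 5 marker-rich arrays (-0.64, adjusted p = 0.177). It also ended with the running sample number (-0.32, 0.529) or the intestinal marker mean (-0.41, 0.25) as a covariate and with the 2 groups alone (0.0613). In wild type Gpx1 ranged from 15.49 to 16.20 at P0, against 15.95 to 16.20 at E18.5, a difference of -0.19 ± 0.18 that did not pass (adjusted p = 0.563).

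Gpx3, the secreted form found in plasma, was 6.68 (lowest), 6.93 (median) and 7.53 (highest) in P0 knockouts, against 6.22, 6.65, 6.46, 6.38 and 6.74 in E18.5 knockouts. It rose by 0.49 ± 0.16 (limma adjusted p = 0.032, higher in 6 of 6 arrays), with overlap. The call ended without any of E18.5 knockouts 1, 3 and 4 or P0 knockouts 2 and 6 (adjusted p from 0.0553 to 0.0861) and without the 5 marker-rich arrays (0.419). It also ended with the intestinal marker mean as a covariate (0.51, 0.138). With the macrophage marker mean as a covariate the difference became 0.08 (adjusted p = 0.82). In wild type Gpx3 was 6.80, 6.72, 6.76, 6.52 and 7.42 at P0, against 6.72, 6.81, 6.57 and 6.80 at E18.5. P0 wild type 5 alone stood above the E18.5 range, and the difference was 0.12 ± 0.18 (adjusted p = 0.725).

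Gpx2, the glutathione peroxidase of gut and other epithelia, was 5.00 (lowest), 5.22 (median) and 5.33 (highest) in P0 knockouts, against 5.68, 5.39, 5.67, 5.83 and 5.65 in E18.5 knockouts. Every P0 knockout was below every E18.5 knockout, as was so for 6.55% of all tested genes. Gpx2 fell by 0.44 ± 0.08 (limma adjusted p = 0.00066), where 11.7% of all tested genes were called lower. With the running sample number as a covariate, which follows age, the difference was -0.28 and did not pass (adjusted p = 0.159). Intestinal markers were also lower at P0 in knockouts, in 6 of 6 with a median difference of -1.48, and Vil1 (-1.49 ± 0.18) and Cdx2 (-0.42 ± 0.13) were called. With their mean as a covariate Gpx2 differed by -0.42 (adjusted p = 0.018). In wild type Gpx2 ranged from 4.99 to 5.27 at P0, against 5.05 to 5.17 at E18.5, a difference of 0.04 ± 0.08 (adjusted p = 0.842). The intestinal markers had a median difference of -0.65 there, with 4 of 6 below 0 and 1 called lower. Gpx2 lay close to the array medians, where differences are compressed, and it was not tested under the stricter signal filter.

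**Figure D2:**
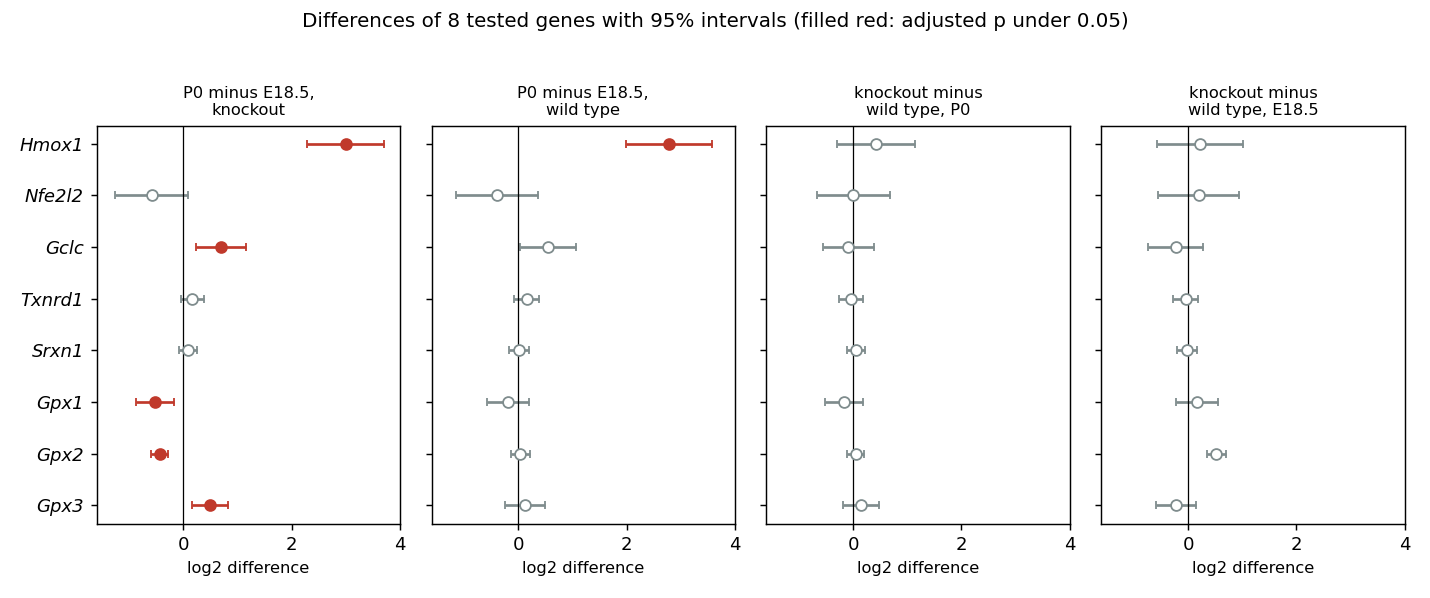
Log2 differences (x axis) of the 8 tested genes (y axis) with 95% intervals, for P0 minus E18.5 in knockouts, P0 minus E18.5 in wild type, knockout minus wild type at P0 and knockout minus wild type at E18.5. Filled red points passed the limma test at an adjusted p under 0.05: Hmox1 in both genotypes, and Gclc, Gpx1, Gpx2 and Gpx3 in knockouts.

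By count, 5 of 8 tested genes were called between the ages in knockouts (3 higher, 2 lower) and 1 of 8 in wild type, where 23.0% and 8.86% of all tested genes were called. The median difference of the 8 genes was 0.12 in knockouts and 0.08 in wild type, against 0.00 and 0.01 over all tested genes. The change with age was not shown to differ between genotypes for any of the 8 (limma, 0 called, 1 with an unadjusted p under 0.05). That gene was Gpx2, whose difference between the genotype effects was -0.47 ± 0.11 (adjusted p = 0.261). Knockouts had 11 arrays and wild type 9, so the 2 comparisons differ in precision.

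Setting knockouts against wild type asks whether loss of inceptor shifts these genes at either age. At P0 0 of 8 genes passed the limma test, and 0 had an unadjusted p under 0.05, where 0.0111% of all tested genes were called. Hmox1 differed by 0.42 ± 0.34 (95% interval -0.30 to 1.14, adjusted p = 0.744), and the other 7 lay between -0.17 and 0.14. Liver markers were also higher in P0 knockouts, in 9 of 9 with a median difference of 1.95, against 0.005 over all tested genes, and 0 were called. The part of liver tissue in these values was not tested. For Nfe2l2 the difference was 0.01 ± 0.32 (95% interval -0.67 to 0.68), which leaves room for changes of up to about this size either way. Srxn1 was bounded more closely, at 0.05 ± 0.08 (-0.12 to 0.22).

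At E18.5 0 of 8 genes passed, with 0.0111% of all tested genes called, and 1 had an unadjusted p under 0.05. That gene was Gpx2, whose 5 knockout values (5.39 to 5.83) were all above the 4 wild-type values of 5.11, 5.17, 5.05 and 5.17. The groups did not overlap in this direction for 1.74% of all tested genes. The difference was 0.52 ± 0.08 (1.43-fold, limma adjusted p = 0.0508), just short of the threshold. It passed in 6 of 34 other settings, including quantile normalization again (adjusted p = 0.00853), centring on array medians (0.0164) and leaving out E18.5 knockout 2 (0.0064), P0 knockout 4 (0.0247) or P0 wild type 1 (0.0298). It had an adjusted p of 0.409 when only the E18.5 arrays were fitted and 0.213 with the replicate number as a block. This difference and the fall of Gpx2 with age in knockouts rest on the same 5 E18.5 knockout arrays.

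Intestinal markers were given beside Gpx2 because the gene is known from gut epithelium. Their mean was 6.62 to 9.50 in E18.5 knockouts, against 6.41 to 9.66 in E18.5 wild type. Of the 6 tested, 5 were above 0 with a median difference of 0.87, and 0 were called. The differences of the 6 ran from -1.265 to 2.16, with Cdx2, which lay close to the array medians, at 0.05 ± 0.14. Across the 20 arrays, deviations of Gpx2 and of the intestinal mean from their group means had a Pearson r of 0.08. With the intestinal mean as a covariate Gpx2 differed by 0.51 (limma adjusted p = 0.158), and without the 5 marker-rich arrays by 0.55 (adjusted p = 0.315). The part of gut tissue in the difference of Gpx2 was not tested.

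The other 7 genes at E18.5 lay between -0.23 and 0.21. Gclc (-0.23 ± 0.24) and Gpx3 (-0.23 ± 0.18) each lay under the mean of wild type on 4 of the 5 knockout arrays, and Hmox1 stood at 0.21 ± 0.38. The adjusted p of these 7 was at least 0.969. The 95% interval of Nfe2l2 was -0.55 to 0.94, and that of Txnrd1 -0.28 to 0.19.

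The wider pathway was read from 8 lists of other genes, beginning with the control of NRF2. Each count of calls stands against 11.3% of all tested genes called higher and 11.7% lower in knockouts, and 4.76% higher and 4.10% lower in wild type, with medians over all tested genes of -0.004 and 0.006. The change with age was not shown to differ between genotypes for any gene of the lists (limma, 0 called of all 17993 tested genes). A call in a single genotype, here and below, is therefore not a difference between genotypes. At birth 3 of 13 regulators and partners were called higher and 2 lower in knockouts, and 3 higher and 0 lower in wild type, with list medians of 0.11 and 0.03. Sqstm1, the autophagy receptor p62 that sequesters KEAP1 and is itself an NRF2 target, rose by 0.93 ± 0.10 in knockouts (8.90 at P0, against 7.97 at E18.5) and by 0.42 ± 0.11 in wild type (8.47 at P0, against 8.05 at E18.5). Cul3 rose by 0.60 ± 0.09 in knockouts and 0.61 ± 0.10 in wild type. In knockouts the small MAF gene Maff fell by 0.32 ± 0.09 and Dpp3, a KEAP1-binding peptidase, fell by 0.30 ± 0.08. In wild type the related factor Nfe2l3 rose by 0.39 ± 0.11. The limma adjusted p of these changes ran from 2.19e-05 to 0.0322.

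Of the genes that supply or break down glutathione, 6 of 13 were called lower and 0 higher at P0 in knockouts, and 5 lower and 0 higher in wild type, where 11.7% and 4.10% of all tested genes were called lower. Chac2 and Chac1, which cleave glutathione, fell by 1.34 ± 0.21 and 1.29 ± 0.18 in knockouts and by 1.14 ± 0.24 and 0.83 ± 0.20 in wild type. Slc7a11, the cystine importer, fell by 1.33 ± 0.21 in knockouts and 0.80 ± 0.23 in wild type. Cth, which makes cysteine from cystathionine, fell by 1.04 ± 0.11 in knockouts and 0.96 ± 0.12 in wild type. The limma adjusted p of these changes was at most 0.04. The P0 means of Slc7a11 (4.91 in knockouts and 5.24 in wild type) were near the array medians, so its fall may be understated. The list median was -0.29 in knockouts and 0.04 in wild type. The intestinal markers, lower in the same knockout comparison, had 2 of 6 called, and their part in these falls was not tested.

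**Figure D3:**
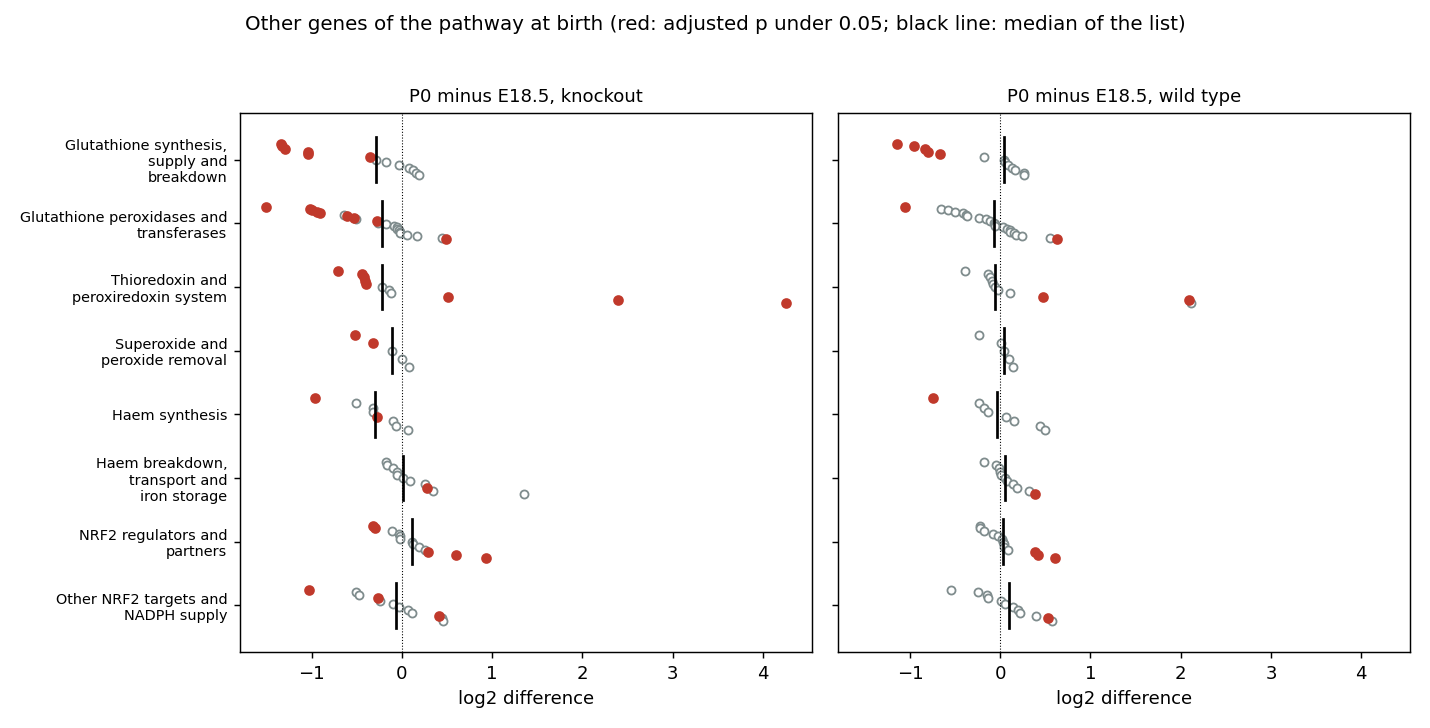
Log2 difference of P0 minus E18.5 (x axis) for each tested gene of the 8 pathway lists (y axis), in knockouts and in wild type. Red points passed the limma test at an adjusted p under 0.05, and black lines mark the list medians, which run from -0.30 to 0.11 in knockouts and from -0.07 to 0.10 in wild type.

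Among the other glutathione peroxidases and the glutathione transferases, which conjugate electrophiles, 8 of 22 were called lower and 1 higher in knockouts, and 1 lower and 1 higher in wild type. All tested genes had 11.7% called lower in knockouts and 8.86% called in either direction in wild type, so the wild-type count is near the background. The list medians were -0.23 in knockouts and -0.07 in wild type. Gstp1 fell by 1.51 ± 0.26 in knockouts and 1.06 ± 0.29 in wild type (limma adjusted p = 0.00057 and 0.0286). In knockouts Gstm7 (-1.01 ± 0.19), the mitochondrial Gstk1 (-0.998 ± 0.208) and Mgst3 (-0.94 ± 0.25) also fell (limma adjusted p from 0.00125 to 0.0112). In wild type the microsomal Mgst1 rose by 0.63 ± 0.17 (adjusted p = 0.0305). The Gstm and Gstp genes have close copies, so signal can be shared between them.

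In the thioredoxin and peroxiredoxin system 3 of 11 genes were called higher and 5 lower in knockouts, and 2 higher and 0 lower in wild type, where 23.0% and 8.86% of all tested genes were called in either direction. The list medians were -0.22 in knockouts and -0.06 in wild type. Txnip, which binds and restrains thioredoxin and is also a glucose- and FOXO-responsive gene, rose by 2.40 ± 0.48 in knockouts and 2.10 ± 0.53 in wild type (limma adjusted p = 0.00164 and 0.0202). The sestrin Sesn1, a p53 and FOXO target, rose by 4.26 ± 0.77 in knockouts (adjusted p = 0.00087) and stood at 2.11 ± 0.86 in wild type (adjusted p = 0.134). Txnrd3 rose by 0.51 ± 0.11 in knockouts and 0.48 ± 0.12 in wild type. Prdx4, the peroxiredoxin of the endoplasmic reticulum, fell by 0.70 ± 0.15 in knockouts (adjusted p = 0.00218).

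Of the genes that remove superoxide and peroxide, catalase (Cat, -0.52 ± 0.13) and the mitochondrial Sod2 (-0.32 ± 0.08) were called lower in knockouts, 2 of 5, and 0 of 5 were called in wild type. In haem synthesis Cpox, a late enzyme of the pathway, fell by 0.96 ± 0.12 in knockouts and 0.74 ± 0.14 in wild type (limma adjusted p = 6.43e-05 and 0.00391), and Uros fell by 0.27 ± 0.09 in knockouts. No other of the 8 tested genes of haem synthesis was called. Downstream of haem oxygenase, biliverdin reductase Blvra rose by 0.38 ± 0.11 in wild type (limma adjusted p = 0.0418). The haem transporter Slc48a1 rose by 0.28 ± 0.10 in knockouts (limma adjusted p = 0.0472). They were the only ones called of the 11 genes of haem breakdown, transport and iron storage, 1 in each genotype. Of all tested genes 11.3% were called higher in knockouts and 4.76% in wild type. Of the ferritin chains that store the released iron, Fth1 stood at 0.01 ± 0.04 in knockouts and 0.06 ± 0.04 in wild type. These 2 values were chosen after they were seen, and those of Ftl1 are not given here.

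Other NRF2 targets and suppliers of NADPH had 1 of 12 genes called higher and 2 lower in knockouts, and 1 higher and 0 lower in wild type. These counts are near the 23.0% and 8.86% of all tested genes called, and the list medians were -0.07 and 0.10. Taldo1 of the pentose phosphate pathway fell by 1.03 ± 0.16 in knockouts (limma adjusted p = 0.000301). The carbonyl reductase Cbr3 rose by 0.41 ± 0.13 and Osgin1 fell by 0.27 ± 0.09 in knockouts, and the epoxide hydrolase Ephx1 rose by 0.53 ± 0.14 in wild type.

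Between genotypes 0 genes of the 8 lists were called by limma at either age. At P0 the smallest unadjusted p belonged to Sqstm1 and to Sod2. Sqstm1 was higher by 0.43 ± 0.10 in knockouts and above every wild-type array in 6 of 6 (limma adjusted p = 0.171). The groups did not overlap in this direction for 0.272% of all tested genes. Sod2 stood at -0.27 ± 0.08 (adjusted p = 0.399). At E18.5 10147 of all 17993 tested genes were above 0 in knockouts, with a median of 0.02. Above 0 were 12 of 13 genes of glutathione supply (median 0.22), 20 of 22 peroxidases and transferases (0.25), 9 of 11 of the thioredoxin system (0.08) and 5 of 5 of superoxide removal (0.06). The same held for 7 of 8 genes of haem synthesis (0.10) and 9 of 12 other NRF2 targets (0.10). The 8 of 13 NRF2 regulators (0.01) and 7 of 11 genes of haem breakdown (0.03) above 0 were near the share and median of all tested genes. The intestinal markers were also higher there on average (5 of 6 above 0, median 0.87), 3 of the 5 knockouts were marker-rich, and their part in these values was not tested. Among the listed genes Mgst2 stood at 0.84 ± 0.28 and Chac2 at 0.66 ± 0.24 (adjusted p = 0.791 and 0.796). Alas2, the erythroid enzyme that starts haem synthesis, stood at 1.12 ± 0.32 (adjusted p = 0.686, above the wild-type mean in 5 of 5 knockouts). At P0 the medians were 0.04 for glutathione supply and -0.003 for peroxidases and transferases.

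The 9 genes did not vary as a block from array to array. After group means were subtracted, the Pearson r between pairs of genes over the 20 arrays ran from -0.54 to 0.63, given here as a description. The highest was between Gclc and Txnrd1 (0.63), and P0 knockout 1 was highest for both. The lowest were between Nqo1 and Srxn1 and between Txnrd1 and Nfe2l2, both at -0.54. Hmox1 had an r between -0.23 and 0.25 with each of the other 8. The arrays share 1 normalization and differ in tissue make-up, so these values carry both.

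**Figure D4:**
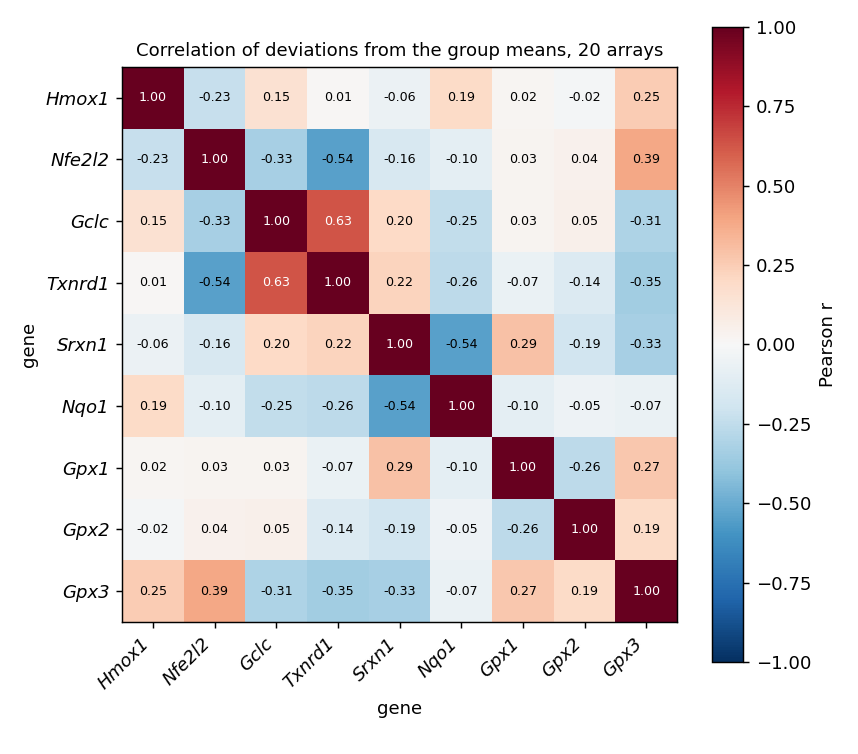
Pearson r between the 9 genes (both axes), computed over the 20 arrays on log2 signals after subtracting each group's mean. Gclc and Txnrd1 form the strongest pair at 0.63, and Hmox1 stays between -0.23 and 0.25 with the others.

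The genes most like each one were taken by the same measure, as the highest r, and carry no test. The search covered the tested genes without predicted genes, small RNAs, and olfactory and vomeronasal receptor genes. For Hmox1 they were the hepcidin gene Hamp (0.80), the metalloproteinase Mmp19 (0.78) and Gmps (0.78). For Nfe2l2 they were Rbm5 (0.90), Emsy (0.89) and Nbeal1 (0.89). For Gclc they were the selenoprotein gene Selenoh (0.86), Trak2 (0.82) and Ptar1 (0.82). For Gpx2 they were Usf3 (0.75), Pcdh9 (0.75) and Chmp1a (0.72). For Gpx3 they were Arhgef11 (0.88), Tagln2 (0.88) and Rela (0.83). None of the 8 tested genes of the part was among them, and Nqo1 and Gclm were outside the search. The macrophage marker mean had an r of 0.71 with Gpx3 and 0.00 with Hmox1.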

How the data were processed

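RNA of 20 pancreas samples was hybridised to an Affymetrix mouse transcript array after amplification and biotin labelling, per the labels' protocols. What the authors deposited are log2 signals, summarised for each probe set by RMA, with Affymetrix Expression Console in version 1.4.1.46, per the submitters' processing notes; the genome build is not given in the sources used here. RMA draws low signals together, which understates changes near the array medians, and values end at a ceiling of 19.932. Of 65956 probe sets, 30604 carried 1 gene symbol, 2146 several and 33206 none; symbols were updated by gene ID to GRCm38.p6. Where several such probe sets named a gene, that of highest mean stood for it. A mean per group was fitted by limma 3.58.1 (R 4.3.3) to the 20 arrays together, two-sided, with p-values adjusted by Benjamini-Hochberg over 17993 genes and a threshold of 0.05. The fit was tested on simulated data. Differences are tested on the log2 scale and given ± SE. The labels do not say that arrays are separate animals, so a p-value measures only how far these samples spread. The genes, lists and marker sets were chosen with earlier results of these data known. Genes of a list were named by the 4 largest called changes, or the smallest unadjusted p where none was called. Alternatives were other filters, normalizations, variance settings, covariates and left-out arrays. Figures were drawn with matplotlib 3.10.9.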

Additional observations from a re-analysis of the deposited data

Results flagged for a closer look

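Of the 36 sets formed by 9 genes and 4 groups, 3 held an array far from the others by Dixon's criterion, where chance flags about 1 in 20. Gpx1 was at 14.96 in P0 knockout 3, below the next array at 15.70. Hmox1 was at 7.28 in E18.5 wild type 1, below the next at 7.51, in a group with a narrow range. Nqo1 was at 3.96 in the same E18.5 wild type 1, below the next at 4.56 and below the array median.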

How the results depend on the processing

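Each of the 5 comparisons was repeated under up to 35 other settings, of which the macrophage mean as a covariate and leaving out the 5 marker-rich arrays were chosen after seeing the data. The Hmox1 calls kept their direction and their side of the threshold in all of them. For knockout against wild type at E18.5 the count of 2 called genes was 5 with array weights, 1 without the marker-rich arrays and 2 to 4 with an array left out. Of the 8 genes 0 were called there, and 1 (Gpx2) with quantile normalization again, centring, array weights or an adjusted p under 0.10, and 0 to 1 with an array left out. At P0 the count of 2 was 1 with array weights, the 2 groups alone, the replicate block or without the marker-rich arrays, 43 at an adjusted p under 0.10, and 1 to 45 with an array left out. For P0 against E18.5 in wild type the count of 1594 was 1008 with the 2 groups alone, 1003 and 476 with the intestinal and macrophage means as covariates, 2686 at an adjusted p under 0.10, and 670 to 1822 with an array left out. In knockouts the count of 4139 was 1939 with the running sample number, 1510 and 1238 with the intestinal and macrophage means, 475 without the marker-rich arrays, and 3292 to 4393 with an array left out. Of the 8 genes 5 were called there, and 3 with the 2 groups alone or the macrophage mean, 2 with the running number, the intestinal mean or without the marker-rich arrays, and 3 to 5 with an array left out. The running number runs from 1 to 12 at P0 and from 13 to 22 at E18.5, so it follows age. For the difference of the knockout effect between ages the count of 0 was 0 to 34 with an array left out.

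Small differences that were never called changed sign. At E18.5 between genotypes Txnrd1 and Srxn1 were at 0.006 with the erythroid mean, and Srxn1 ran from -0.086 to 0.073 with an array left out. At P0 Gclc was at 0.011 with array weights and 0.018 without the marker-rich arrays (-0.274 to 0.027 with an array left out), Txnrd1 ran from -0.110 to 0.017, and Nfe2l2 was at -0.019 with quantile normalization and -0.004 with array weights (-0.251 to 0.240). With age in wild type Srxn1 was at -0.161 with the running number, -0.009 with the liver mean and -0.052 without the marker-rich arrays (-0.052 to 0.107), and Gpx3 at -0.166 with the macrophage mean (-0.022 to 0.205). In knockouts Txnrd1 was at -0.013 and Srxn1 at -0.112 with the running number. For the difference between ages Hmox1 was at -0.023 with the replicate block and -0.069 with the liver mean (-0.016 to 0.523). Txnrd1 was there at -0.011 with quantile normalization, -0.003 with the replicate block, -0.015 with the running number and -0.021 with the erythroid mean (-0.063 to 0.063). Gclc ran from -0.044 to 0.256, Srxn1 from -0.021 to 0.138, and Nfe2l2 from -0.447 to 0.044, with 0.060 without the marker-rich arrays. The cause was not tested. No fit of the 2 groups alone exists for the difference between ages, and Gpx2 did not pass the stricter signal filter.

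Replicate numbers were not taken as pairs, because the labels name nothing that same-numbered arrays share. Deviations of same-numbered arrays did not correlate at over 0.1 in every pair (0.090, 0.180, 0.124 and 0.229 at E18.5, and -0.03 to 0.25 at P0). These values cannot decide whether arrays were paired. At E18.5 all 4 pairs were positive and 6 of 8 arrays correlated best with their own number, a hint of pairing from the data. At P0 it was 2 of 10. With the replicate block Gpx2 at E18.5 differed by 0.50 (adjusted p = 0.213).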
